A study of Rattus norvegicus with 17 samples.

Results

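The regions described here are stretches of the rat genome that were called as H3K27Ac peaks in mature oligodendrocytes (mOL) alone and at which no H3K4me3, Brg1 or Olig2 peak was called at any stage. They were chosen by the deposited peak lists themselves. The H3K27Ac peaks of oligodendrocyte precursor cells (OPC), immature oligodendrocytes (iOL) and mOL were joined where they overlapped or touched, which gave 37372 regions. Of these, 7889 held H3K27Ac of mOL only and met none of the other lists, and they are called members below. They made up 21.1% of all regions and 56.2% (exact Clopper-Pearson 95% interval 55.4 to 57.1) of the 14027 regions called in mOL only. Because the lists of H3K27Ac, H3K4me3, Brg1 and Olig2 set the choice, these counts are a description and no finding. Over all regions, H3K27Ac was called in mOL only at 37.5%, and 30.1% met no H3K4me3, Brg1 or Olig2 peak. Among regions that did meet one of those peaks, 23.5% were called in mOL only. Nothing is read from the difference, since the choice used it.

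H3K27Ac, acetylation of lysine 27 on histone H3, marks active enhancers and promoters, and H3K4me3, trimethylation of lysine 4, marks promoters. A region with the first mark and without the second is called distal here and is usually taken as a candidate enhancer, although distance to a transcription start was not measured. Brg1, encoded by Smarca4, is an ATPase that powers the BAF complex, a remodeller that moves nucleosomes. Olig2 is a basic helix-loop-helix transcription factor that is needed to make the oligodendrocyte lineage. Factor-free means here only that no peak of these 2 proteins was called, and other transcription factors were not mapped.

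Chromatin immunoprecipitation with sequencing (ChIP-seq) was run on wild-type primary cells from the cortices of Sprague-Dawley rat pups at postnatal day 2. OPC were labelled as treated with mitogens, the growth factors that keep precursors dividing, and iOL and mOL as treated with T3, the thyroid hormone that drives their differentiation. The 17 libraries covered Brg1, Olig2, H3K27Ac, H3K4me3 and H3K9me3 at all 3 stages and RNA polymerase II (RNAPII) in OPC and iOL. In the protocols the cells are named iOL from isolation on, so the stages, and what is called earlier below, rest on the sample labels alone. With 1 library for each target and stage, differences between stages have no replicate check, and no p-value is given.

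The authors' lists hold the start and end of each peak and no height, so that depth is unknown and weak peaks cannot be told from strong ones. For OPC, iOL and mOL, H3K27Ac peaks numbered 19130, 21589 and 35268. In the same order there were 452, 5465 and 4378 Brg1 peaks and 21901, 25787 and 2759 Olig2 peaks. The mOL H3K27Ac list is thus the longest of the 3. When only the widest 19130 peaks of each H3K27Ac list were used, 2975 regions met the same rule. Whether the long mOL list comes from more acetylated sites, deeper sequencing or a looser threshold cannot be told apart from these files.

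Taken over any stage, H3K4me3 and Olig2 met more of the 14027 mOL-only regions than Brg1 did. For peaks of mOL alone, Olig2 met fewer than Brg1, both there and over all 37372 regions. Over all regions, mOL H3K4me3 lay at 14305, iOL Olig2 at 10908, OPC Olig2 at 9000, iOL Brg1 at 3927, mOL Brg1 at 3766 and mOL Olig2 at 1456. Shares for any stage over all regions are not given here. The lists also differ in length, so the order is not read as a trait of mOL-only regions. H3K4me3 of any stage lay at 2468 of the mOL-only regions (17.6%). Olig2 of any stage lay at 3196 (22.8%), with OPC Olig2 at 2220, iOL Olig2 at 2475 and mOL Olig2 at 399. Brg1 lay at 1547 (11.0%), with OPC Brg1 at 42, iOL Brg1 at 670 and mOL Brg1 at 1183. Among the 11559 without H3K4me3, Olig2 alone was called at 2168, Brg1 alone at 623 and both at 879. The members are the remaining 7889 of those 11559 (68.3%).

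The limit between a member and a region shared with an earlier stage is 1 bp, and some members stood close to it. A gap of at most 100 bp separated 134 members from the nearest OPC or iOL H3K27Ac peak, and a gap of at most 500 bp separated 634. On the other side were 2009 regions that also met no H3K4me3, Brg1 or Olig2 peak but had H3K27Ac in mOL and earlier. In 17 of these the mOL and earlier peaks shared at most 100 bp, and in 555 at most 500 bp.

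The members were narrow, and each was exactly 1 mOL peak. Their median width was 662 bp, with quartiles of 524 and 945 bp and a range of 230 to 5833 bp, and together they covered 6.41 Mb. The 539 factor-free distal regions called at all 3 stages had a median of 1405 bp (quartiles 962 and 1992 bp), and the 1083 called in iOL and mOL had 1186 bp. The 1345 called in OPC or iOL and not in mOL were narrower than the members, with a median of 551 bp (quartiles 455 and 707 bp). The 3670 mOL-only distal regions with Brg1 or Olig2 had 715 bp (quartiles 552 and 1067 bp). Only 221 members (2.80%) reached 2000 bp, against 24.7% of the all-stage regions and 5.40% of the mOL-only regions with Brg1 or Olig2.

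**Figure D1:**
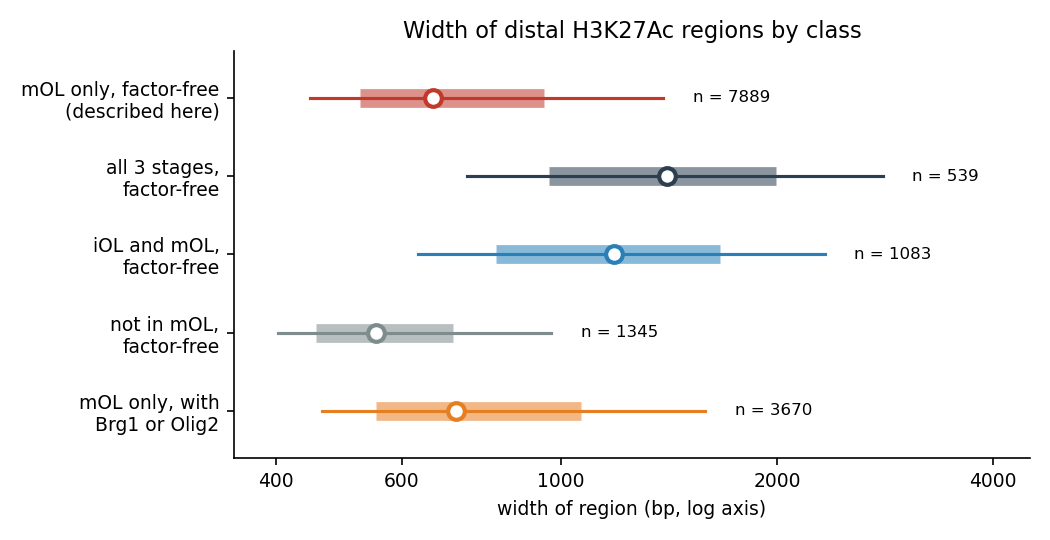
Width of distal H3K27Ac regions in bp on a log axis, with 1 row for each class. The circle is the median, the thick bar runs from the lower to the upper quartile and the thin line from the 10th to the 90th percentile of regions; the members have a median of 662 bp and the all-stage regions of 1405 bp.

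Regions called at several stages join the peaks of several lists, which makes them wider by construction. Measured on mOL peaks alone, members still had the lower median, 662 bp, against 1033 bp for peaks in all-stage factor-free regions and 956 bp for peaks in regions of iOL and mOL. All 35268 mOL peaks had a median of 827 bp. Of the members, 2900 (36.8%, 35.7 to 37.8) were among the 19130 widest mOL peaks, against 65.6% of the peaks in all-stage regions and 54.2% of all mOL peaks. Peaks in mOL-only distal regions with Brg1 or Olig2 came closest to the members, with 43.7% (42.0 to 45.3). Those in factor-free regions of OPC and mOL had 50.5% (45.5 to 55.5). Width in such lists also moves with peak height, which the lists do not hold, and the part of height in these widths was not tested.

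The widest member, chr6:123573244-123579076 (build rn4, as all positions here), was 5833 bp long and stood 5 bp from the next member in a cluster of 10. It also met an mOL H3K9me3 peak, and the nearest earlier H3K27Ac peak was 4.08 kb away. The next widest were chr2:144938953-144944143 with 5191 bp and chr5:51677949-51682494 with 4546 bp. They were followed by chr4:152601094-152605575 with 4482 bp and chr16:48389544-48393954 with 4411 bp. The chr2 region had no other member within 10 kb and stood 24.8 kb from the nearest mOL Brg1 peak. The other 4 each had another member within 30 bp.

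Members lay near each other. Another member stood within 10 kb of 3716 of the 7889 (47.1%, 46.0 to 48.2). When each member was moved along its chromosome by an offset of its own, which keeps the number of members on each chromosome and breaks their spacing, the share averaged 6.41% (range 5.20 to 7.68 over 1000 shifts). With H3K27Ac lists of equal length, the share among the 2975 members was 30.0% (shifts 2.55%). In the full lists, the median gap to the next member was 13.0 kb, against 114 kb after shifting (range 107 to 119.6 kb). Such shifts place regions without regard to genes or to sequence that reads cannot reach, and the part of these in the difference was not tested.

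The other classes also lay closer to their own kind than their shifts did. Within 10 kb of another region of the same class stood 33.4% of mOL-only distal regions with Brg1 or Olig2 (shifts 3.01%), 17.3% of those of iOL and mOL (1.05%) and 8.53% of all-stage regions (0.547%). These shares depend on the number of regions in each class and are not compared with the share of the members. Any other mOL H3K27Ac region, of whatever class, stood within 10 kb of 70.9% (69.9 to 71.9) of members. It did so for 72.4% (68.4 to 76.1) of all-stage regions and 75.7% (73.0 to 78.2) of those of iOL and mOL. For mOL-only distal regions with Brg1 or Olig2 this was 63.5% (61.9 to 65.1).

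Part of the spacing is at a scale where a peak caller can split 1 acetylated stretch, which was not tested directly. Another member stood within 100 bp of 1075 members (13.6%), within 500 bp of 2181 (27.6%) and within 1000 bp of 2416 (30.6%). With members up to 1 kb apart taken as 1, there were 6608 blocks, of which 1135 held 2 or more. Of the blocks, 24.5% (23.4 to 25.5) had another block within 10 kb, against 5.48% after shifting (range 4.25 to 6.57). The 4265 members with no other mOL H3K27Ac region within 1 kb had another such member within 10 kb in 13.1% of cases, against 3.50% after shifting. Grouping was thus smaller when close peaks were treated as 1, and it stayed above every shift in both forms.

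With members up to 10 kb apart counted as 1 cluster, there were 5681 clusters. Single members made up 4173 of these, 1105 clusters held 2, 260 held 3 and 84 held 4. Another 59 held 5 or more and contained 390 members (4.94%), and 8 held 10 or more. After shifts with own offsets, clusters of 4 averaged 0.25 and clusters of 5 or more did not occur in 100 shifts. Members of clusters of 5 or more were wider, with a median of 779 bp, than the 4173 single members, with 642 bp.

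**Figure D2:**
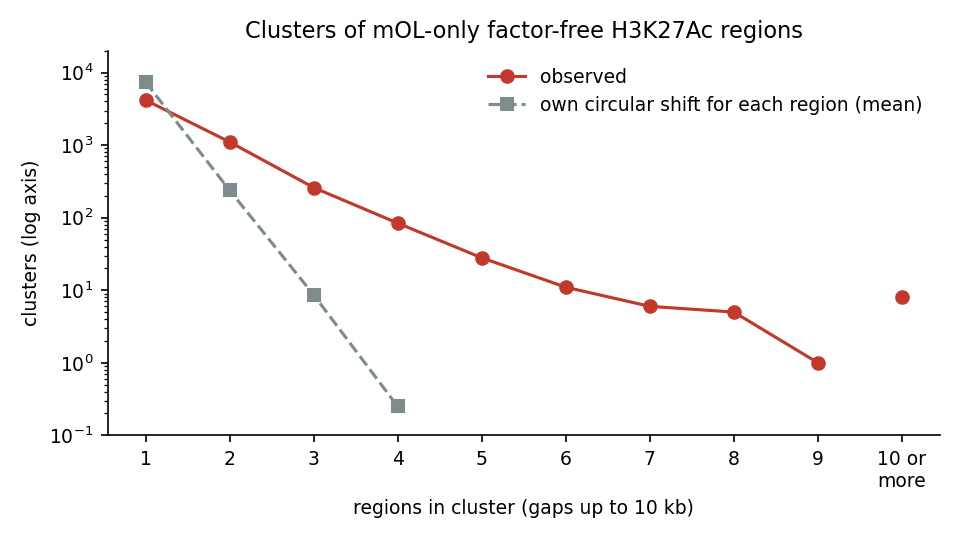
Number of clusters (log axis) by the number of members each holds, where members up to 10 kb apart are joined; the last point pools clusters of 10 or more. Red circles are the observed clusters and grey squares the mean over 100 circular shifts with an own offset for each region, which gave none of 5 or more against 59 observed.

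The cluster with most members was chr1:44938108-44967586, where 15 members lay within 29.5 kb and covered 38.7% of it. Their widths ran from 377 to 1374 bp. Between them stood 3 other mOL H3K27Ac regions, 1 OPC H3K27Ac peak, no iOL H3K27Ac peak, 1 mOL Brg1 peak and no Olig2 peak. On 1 side the nearest mOL H3K4me3 peak stood 3.08 kb from its first member and met H3K27Ac of iOL and mOL, and farther H3K4me3 peaks on that side met H3K27Ac of all 3 stages. The members there are thus distal only by the rule, and lie beside H3K4me3.

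The next largest held 13 members each. In chr1:146985936-147024938 they covered 33.3% of 39.0 kb, together with 1 other mOL H3K27Ac region that held OPC and iOL H3K27Ac, mOL Brg1 and Olig2, and the nearest mOL H3K4me3 peak was 4.87 kb away. In chr6:126876113-126911975 they covered 37.8% of 35.9 kb, again with 1 other mOL H3K27Ac region. That region held iOL H3K27Ac, mOL Brg1 and Olig2, without OPC H3K27Ac, and the nearest mOL H3K4me3 peak was 54.4 kb away. In all 3 clusters, then, the members surrounded 1 mOL Brg1 peak. These clusters were named for their number of members and say nothing of the rest.

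**Figure D3:**
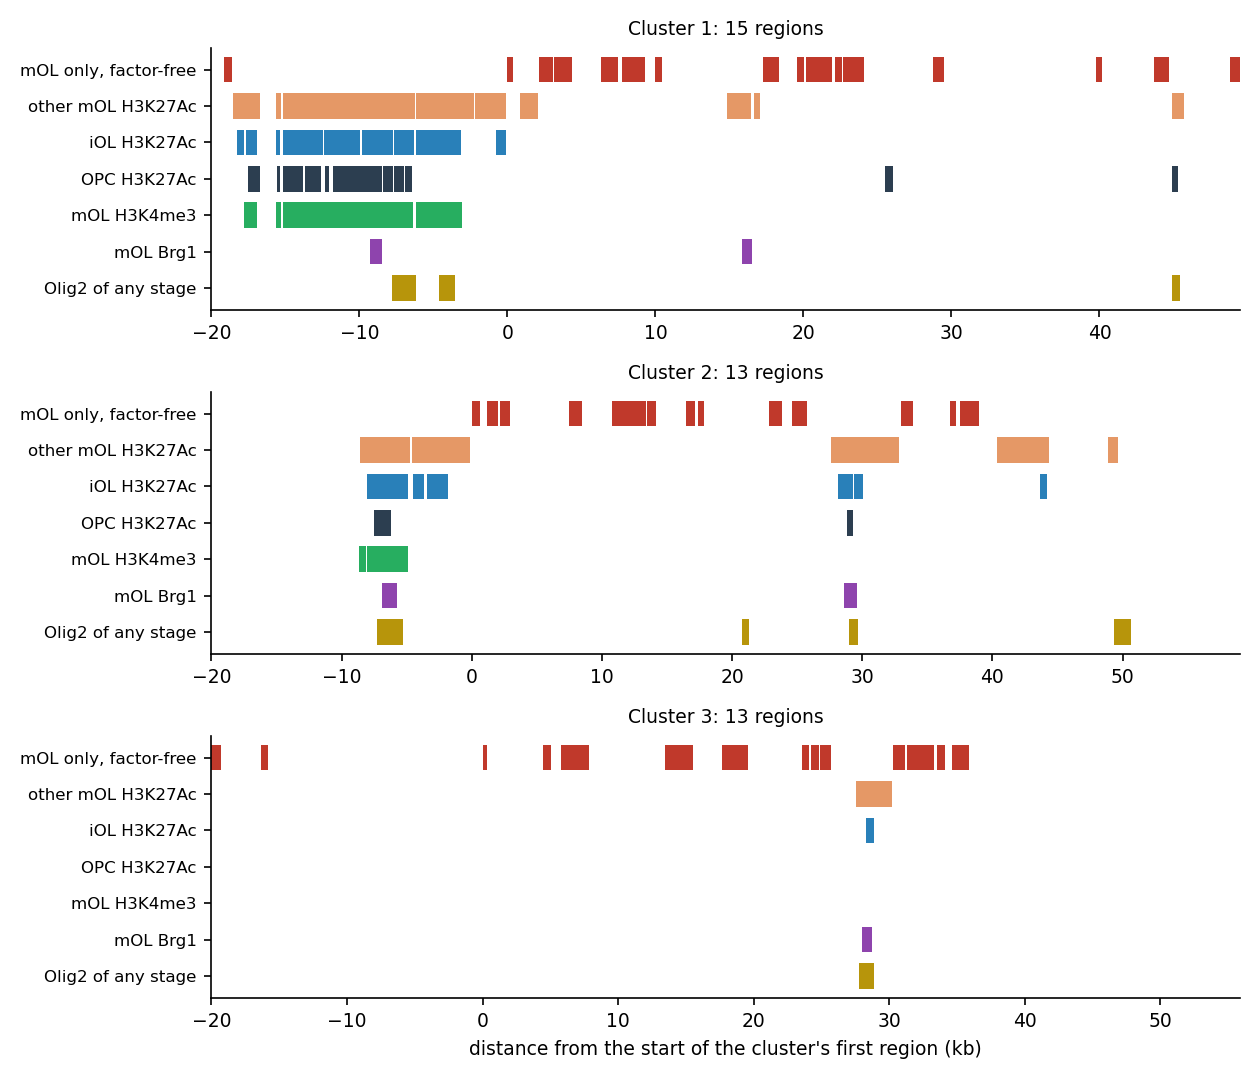
Peaks of 7 kinds (rows) in the 3 clusters with most members, by distance in kb from the start of the first member. Each bar is a peak or region drawn to scale. The clusters hold 15, 13 and 13 members (top row), which lie between and beside a few other mOL H3K27Ac regions. For the clusters of chr1:44938108-44967586 and chr6:126876113-126911975, the top row also shows members outside the cluster. Within each cluster stands 1 mOL Brg1 peak.

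Members stood nearer to sites acetylated at an earlier stage than shifted regions did. Of the members, 3335 (42.3%, 41.2 to 43.4) stood within 10 kb of an OPC or iOL H3K27Ac peak, although none met one by rule. Circular shifts of the whole list, leaving out shifted regions that met such a peak, averaged 11.6% (range 10.1 to 14.5 over 1000 shifts). The median gap was 14.7 kb, against 99.9 kb after shifting (range 77.2 to 119.6). This nearness was shared by mOL-only regions in general. Of the 6138 that were not members, 43.2% (41.9 to 44.4) stood within 10 kb of earlier H3K27Ac. These 6138 were not shifted alone, and shifts of all 29483 regions that are not members averaged 11.6%. The mOL-only regions that were distal and held Brg1 or Olig2 had 33.5% (32.0 to 35.1), with 11.3% after shifting. Earlier peaks of iOL were within 10 kb of 39.0% of members (shifts 9.95%) and those of OPC within 10 kb of 30.3% (shifts 9.14%). Treating close members as 1 left the share at 43.3% of blocks, while members with no other mOL region within 1 kb had 32.5% (shifts 11.5%).

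The excess over the shifts fell with distance. Members were 8.53 times as frequent as shifted regions at gaps below 1 kb, 3.35 times at 2 to 5 kb, 1.72 times at 10 to 20 kb and 1.19 times at 20 to 50 kb. Beyond 50 kb they were rarer than shifted regions, with 0.722 times at 50 to 100 kb and 0.177 times at 500 to 1000 kb. Earlier H3K27Ac stood within 10 kb on both sides of 787 members (9.98%) and on 1 side of 2548 (32.3%). For 1962 members (24.9%) there was none within 50 kb. Earlier H3K27Ac stood within 50 kb of 75.1% of members (shifts 35.6%) and of 71.6% of the 6138 mOL-only regions that were not members. Shifts of all 29483 regions that are not members averaged 35.7%.

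**Figure D4:**
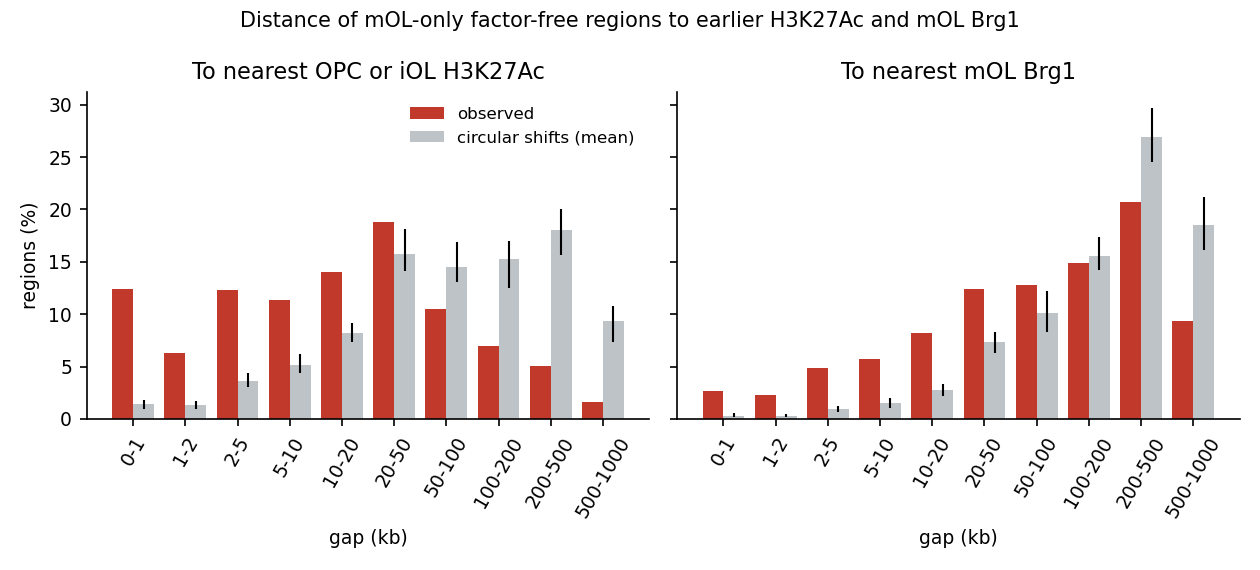
Share of members (%) by the gap in kb to the nearest H3K27Ac peak of OPC or iOL (left) and to the nearest mOL Brg1 peak (right). Red bars are observed and grey bars the mean over 200 circular shifts, with black lines from the lowest to the highest shift; gaps up to 20 kb are more frequent among members in both panels, and gaps of 200 kb and more are less frequent.

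The members farthest from earlier acetylation lay on chromosome 13. The gap was 7977 kb at chr13:22949853-22950321, a peak of 469 bp whose nearest other member was 535 kb away. It was 7441 kb at chr13:23485264-23486384 and 7362 kb at chr13:23564931-23565647, which stood 78.5 kb apart. These last 2 had an mOL Brg1 peak at 47.9 kb and 29.7 kb. Over the whole set, 558 members (7.07%) had neither earlier H3K27Ac nor Brg1, Olig2 or H3K4me3 of any stage within 50 kb. No value for other regions or for shifts stands beside this count, so it is not read as a trait of members.

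The earlier H3K27Ac regions that had a member within 10 kb, 4465 of 25124 (17.8%), are described here beside the other 20659. The H3K27Ac, H3K4me3 and Brg1 lists used for this also set the choice of members, so the differences are no finding. They were more often still acetylated in mOL, 90.9% against 81.7%, and more often called in iOL and not in OPC, 38.0% against 27.3%. They held H3K4me3 in mOL less often, 36.1% against 52.9%, and mOL Brg1 more often, 16.2% against 9.70%. Brg1 of iOL lay at 14.8% of them and at 13.4% of the others. The 95% intervals of the pairs other than iOL Brg1 were apart, and those for iOL Brg1 overlapped slightly. Such intervals reflect counting error alone and take neighbouring peaks as independent. Earlier regions near mOL-only regions that are not members were not compared.

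mOL Brg1 peaks also stood near members more often than near shifted regions. Within 10 kb of an mOL Brg1 peak were 1231 members (15.6%, 14.8 to 16.4), against a mean of 3.07% after shifting (range 2.26 to 4.19). Within 1 kb the share was 2.66% (shifts 0.326%) and within 100 kb 49.1% (shifts 23.3%). The median gap was 104 kb, against 298 kb after shifting (range 257 to 336 kb). For most members, then, no mOL Brg1 peak was called within 10 kb. Among members with no other mOL region within 1 kb, the 10 kb share was 10.5% (shifts 3.12%).

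Against other factor-free distal regions, which also meet no Brg1 peak, the members' 15.6% was higher than the 9.83% (7.45 to 12.7) of all-stage regions and the 9.67% (8.14 to 11.4) of regions not called in mOL. It was close to the 15.8% (13.7 to 18.1) of regions of iOL and mOL. For mOL Brg1 peaks that were called in mOL only, 2180 in number, the shares were 8.49% (7.89 to 9.13) of members, 9.33% of regions of iOL and mOL, 3.90% (2.43 to 5.89) of all-stage regions and 3.57% (2.64 to 4.70) of regions not in mOL. For the 2198 mOL Brg1 peaks that met an earlier Brg1 peak, they were 8.07%, 7.76%, 6.68% and 6.54% in the same order. iOL Brg1 stood within 10 kb of 13.3% of members, 12.9% of regions of iOL and mOL, 13.9% of all-stage regions and 15.2% of regions not in mOL. The intervals of members and all-stage regions were apart at mOL-only Brg1 peaks and overlapped at iOL Brg1 peaks. Under the other choices below, the intervals at mOL-only Brg1 peaks no longer stayed apart. With peaks within 1000 bp counted as overlapping, mOL-only Brg1 was near 6.35% (5.77 to 6.98) of members and 4.41% (2.82 to 6.55) of all-stage regions, and any mOL Brg1 near 12.1% (11.3 to 12.9) of members and 10.7% (8.22 to 13.7) of all-stage regions. Among regions with no other mOL region within 1 kb, mOL-only Brg1 was near 5.81% (5.13 to 6.56) of members and 2.85% (1.31 to 5.34) of all-stage regions. For any mOL Brg1 these were 10.5% (9.58 to 11.4) of members and 6.65% (4.16 to 9.98) of all-stage regions. Members kept the higher share in these comparisons, but the intervals overlapped in all 4. All-stage regions numbered 521 and 316 under these choices, against 539 as reported, and their intervals were wider. Such intervals take neighbouring regions as independent, so their overlap does not decide whether the shares differ.

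**Figure D5:**
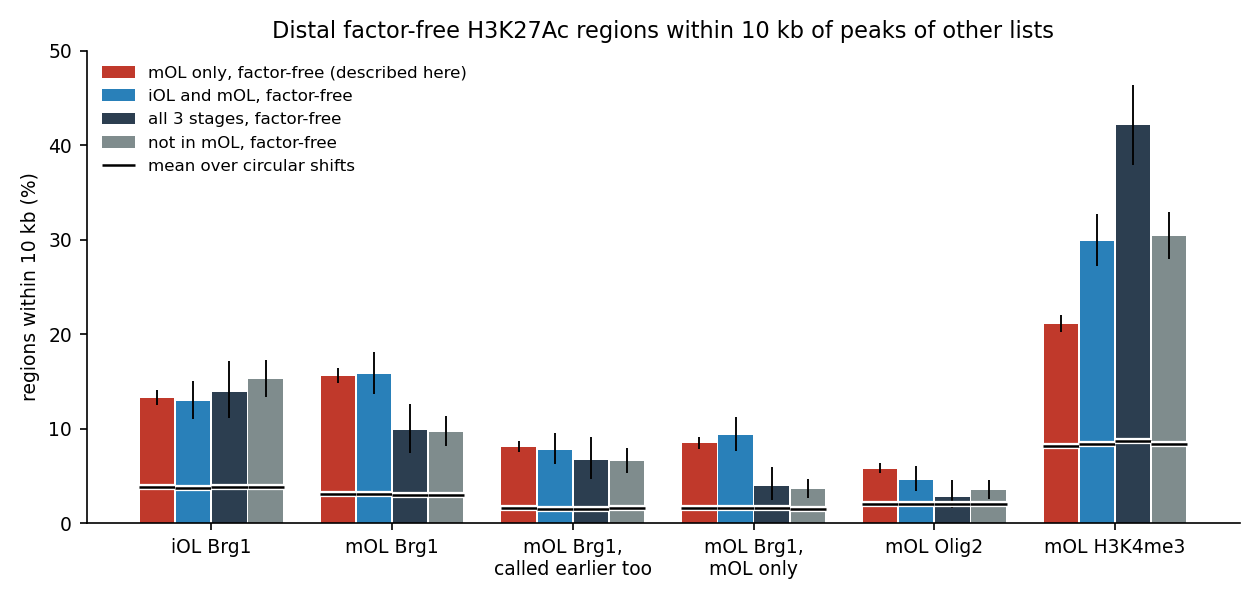
Share of factor-free distal H3K27Ac regions (%) with a peak of 6 lists within 10 kb, for the members (red) and 3 other classes. Black lines are exact 95% intervals and short horizontal lines the mean over circular shifts (1000 for members, 200 for other classes); members exceed all-stage regions at mOL-only Brg1, 8.49% against 3.90%, and fall below them at mOL H3K4me3, 21.1% against 42.1%.

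Nearness to Brg1 and nearness to earlier acetylation went together. Of the 1231 members near mOL Brg1, 81.3% (79.0 to 83.5) also had earlier H3K27Ac within 10 kb, against 35.1% (33.9 to 36.2) of the other 6658. Another member was within 10 kb of 57.6% of those near mOL Brg1 and of 45.2% of the others. Looked at from the Brg1 side, 931 of the 4378 mOL Brg1 peaks (21.3%) had a member within 10 kb. Of these 931, 92.2% lay on H3K27Ac of mOL, against 71.4% of the other 3447. iOL Olig2 met 69.2% of the 931 and 68.4% of the 3447. Earlier H3K27Ac, of OPC or iOL, lay at 71.4% of the 931 and at 54.1% of the 3447. The same neighbouring site can thus count both as mOL Brg1 and as earlier H3K27Ac. The part of this overlap in the difference between 81.3% and 35.1% was not tested.

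The members nearest to mOL Brg1 without meeting it stood alone. At chr6:6057601-6057999, a peak of 399 bp, the gap to mOL Brg1 was 0.004 kb, and earlier H3K27Ac was 3.40 kb away. At chr11:8493451-8493952, a peak of 502 bp, the gap was 0.012 kb, and at chr7:123385245-123385975, a peak of 731 bp, it was 0.031 kb. None of these 3 had another member within 10 kb. Gaps this small are below the precision with which ChIP-seq places the end of a peak.

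Members of the widest quartile had the highest shares near mOL Brg1 and near earlier H3K27Ac. In the 4 quartiles of member width (up to 524, 662, 945 and 5833 bp), mOL Brg1 was within 10 kb of 15.4%, 13.7%, 15.1% and 18.3%. Earlier H3K27Ac was within 10 kb of 40.1%, 42.0%, 42.2% and 44.8%, and another member within 10 kb of 41.6%, 45.7%, 51.7% and 49.3%. Near mOL Brg1, the widest quartile of members had 18.3% (16.6 to 20.1). All-stage regions wider than 945 bp had 10.8% (7.95 to 14.2), and such regions of iOL and mOL 18.2% (15.4 to 21.3). This band has no upper limit, and all-stage regions join several lists and reach 7990 bp, so width is not matched within it.

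Olig2 of OPC and iOL and H3K4me3 of mOL stood near all-stage regions more often than near members. OPC Olig2 was within 10 kb of 32.5% of members, 33.5% of regions of iOL and mOL and 38.8% of all-stage regions. iOL Olig2 was within 10 kb of 39.5%, 47.4% and 48.6% in the same order. Both shares of members were above their shifts, 14.0% and 16.0%. mOL Olig2, a list of 2759 peaks, went the other way, with 5.78% (5.28 to 6.32) of members and 2.78% (1.57 to 4.55) of all-stage regions. Regions of iOL and mOL had 4.62% (3.45 to 6.04) and regions not in mOL 3.49% (2.58 to 4.62). mOL-only distal regions with Brg1 or Olig2 that did not meet mOL Olig2 had 5.40% (4.65 to 6.23), so the share is not particular to members. mOL H3K4me3 was within 10 kb of 21.1% of members (shifts 8.15%), 29.9% of regions of iOL and mOL, 30.4% of regions not in mOL and 42.1% of all-stage regions. mOL-only distal regions with Brg1 or Olig2 had 13.7%, below the members.

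All mOL H3K27Ac peaks, joined where gaps did not exceed 10 kb, gave 18256 domains, and 5470 of them (30.0%) held a member. Of the members, 43.2% lay in a domain that also held earlier H3K27Ac, 27.7% in a domain of 2 or more regions without earlier H3K27Ac, and 29.1% alone. Of mOL-only distal regions with Brg1 or Olig2, 32.5% (31.0 to 34.0) lay in a domain with earlier H3K27Ac. mOL H3K4me3 was in the domain of 25.8% of members, 44.9% of all-stage regions and 14.9% of mOL-only distal regions with Brg1 or Olig2. The domains were built from the same mOL list as the members, so these shares describe it.

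H3K9me3, the mark of silenced chromatin, and RNAPII played no part in the choice of members. An mOL H3K9me3 peak met 66 members (0.837%, 0.648 to 1.06). The mean over shifts was 0.515%, with a range of 0.266 to 0.837 that reached the observed value. All other H3K27Ac regions had 0.421% (0.350 to 0.501), and mOL-only distal regions with Brg1 or Olig2 0.627% (0.398 to 0.939). Factor-free regions of iOL and mOL had more than the members, 14 of 1083 (1.29%, 0.708 to 2.16), with an interval that overlapped theirs. All-stage regions had 0.186% and regions not in mOL 0.297%. OPC H3K9me3 met 15 members and iOL H3K9me3 met 3. After chr6:123573244-123579076, the widest members with mOL H3K9me3 were chr5:51671666-51674717, with 3052 bp, and chr13:32828930-32831412, with 2483 bp. H3K9me3 and H3K27Ac were mapped in separate libraries, so both marks at 1 region need not come from the same cells.

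RNAPII was rare at members and also at some other distal classes. iOL RNAPII met 18 of them (0.228%, 0.135 to 0.360), against a mean of 0.108% after shifting (range 0 to 0.304), and OPC RNAPII met 2. Of all-stage factor-free regions, 20 of 539 (3.71%, 2.28 to 5.67) met iOL RNAPII, and of all other H3K27Ac regions 5.30%. Factor-free regions of iOL and mOL had 1.02% (0.508 to 1.81). Those not in mOL had 3 of 1345 (0.223%, 0.0460 to 0.650), close to the members. mOL-only distal regions with Brg1 or Olig2 had fewer, 1 of 3670 (0.0272%, 0.000690 to 0.152). The widest members with iOL RNAPII were chr4:82943514-82945516 with 2003 bp, chr10:56301098-56302535 with 1438 bp and chr4:82945548-82946625 with 1078 bp, the first and last of which are 31 bp apart. RNAPII of mOL, the stage at which the members were acetylated, was not analysed here.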

How the data were processed

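Per the submitters' processing notes, MACS 1.4.0 and build rn4 were used. No source used here states the aligner, threshold, control, filters or pooling. Every deposited list holds 3 columns, chromosome, start and end, and the authors' peak positions in base pairs were the values analysed; 1 was added to each start. No column was left unused.

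Overlap meant at least 1 bp. Gaps run between the nearest ends. Shares carry exact Clopper-Pearson 95% intervals, which cover counting error only and treat regions as independent. Circular shifts had fixed seeds and took as chromosome length the largest peak end in any of the 17 lists. For gaps to another list, shifted regions that met the target were left out. For spacing within a class and for overlap with H3K9me3 or RNAPII, none were left out. There were 1000 for members, 200 for other classes, blocks and members with no other mOL region within 1 kb, and 100 for other alternatives. They are a description, not a test. Overlaps and shifts were checked on simulated lists.

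The members and the lists were chosen with earlier results of these data known. Regions named were the 5 widest members, the 3 clusters with most members, and the 3 members farthest from earlier H3K27Ac, nearest to mOL Brg1, and widest with RNAPII or mOL H3K9me3, leaving out unplaced sequence. Region sequences and gene names are not used here, as the annotation at hand is of another assembly. Python 3.11.15, numpy 2.4.6, pandas 2.3.3, scipy 1.17.1, matplotlib 3.10.9 and bedtools 2.31.1 were used.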

Additional observations from a re-analysis of the deposited data

How the results depend on the processing

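No paired analysis was possible because there was 1 library for each target and stage. Of 70 values recomputed under alternatives, 36 stayed within the 95% interval of the reported value or within 1.5 times the reported count, and 34 did not. All 33 shares within 5, 10 or 20 kb of another member, mOL Brg1 or earlier H3K27Ac stayed above the mean of their shifts, and in every alternative at 10 kb that changed the rule members were nearer mOL Brg1 than all-stage regions, by least with peaks within 1000 bp taken as overlapping (12.1% against 10.7%, with overlapping intervals). The cause of the changes below was not tested.

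With overlap of 50% of the shorter peak, members were 60.6% of mOL-only regions, the ratio of their median width to that of all-stage regions was 0.484 (0.471 as reported), and 17.5% were near mOL Brg1. With peaks within 1000 bp taken as overlapping, the share of mOL-only regions was 55.1%, and 45.4% were near another member, 12.1% near mOL Brg1 and 33.3% near earlier H3K27Ac, with 34.9% in a domain with earlier H3K27Ac. With H3K27Ac lists of equal length there were 2975 members, the width ratio was 0.621, and 30.0% were near another member, 17.4% near mOL Brg1 and 40.8% in such a domain. When peaks of mOL alone excluded, the share was 72.7%, the ratio 0.384, 48.8% were near another member and 42.0% in such a domain. With the middle 200 bp of excluding peaks, the share was 63.6%, the ratio 0.507, 17.3% were near mOL Brg1, 43.7% near earlier H3K27Ac and 44.4% in such a domain.

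At 5 kb in place of 10 kb the shares near another member, mOL Brg1 and earlier H3K27Ac and in such a domain were 40.6%, 9.85%, 30.9% and 32.3%, and at 20 kb 55.1%, 23.8%, 56.3% and 57.5%. Added after seeing the data, joining members across 1 kb gave 24.5% near another block, and members without another mOL region within 1 kb gave 13.1%, 10.5% and 32.5%. The share with mOL H3K9me3 kept within its interval under every alternative run. Unknown depth limits every statement that a peak is absent.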

Other observations

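Members were spread over all placed chromosomes, from 0.703 per Mb on chromosome X to 4.64 per Mb on chromosome 12, with a median of 3.00. Much of this spread belongs to H3K27Ac regions as a whole, which numbered 734 over 161 Mb of chromosome X and 1040 over 46.8 Mb of chromosome 12. As a share of all H3K27Ac regions, members were 15.4% (12.9 to 18.2) on chromosome X and 20.9% (18.4 to 23.5) on chromosome 12, with a median over chromosomes of 21.2%. Chromosome X was looked at after these values were seen. Of its 273 mOL-only regions, 41.4% (35.5 to 47.5) were members and 34.1% (28.5 to 40.0) held H3K4me3, against 56.5% and 17.3% on the numbered chromosomes. The choice of members uses H3K4me3, so these shares restate one another and are given as a description. No source used here states the sex of the pups, and its part in these values was not tested.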
